A study of Homo sapiens with 36 samples.

Results

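The comparison described here sets human kidney cells treated with a high dose of the compound labelled Ota against cells treated with a low dose for 24 h. The arrays were chosen by their titles alone: 3 arrays of the high dose and 3 arrays of the low dose, 6 of the 36 arrays of the series. The cells were HK-2, an immortalized human line that the labels describe as renal proximal tubular epithelium, grown without serum in a medium with EGF, insulin, transferrin, hydrocortisone and selenite. Cultures were seeded a day before treatment and treated near confluence. The 3 arrays of each group are labelled biological replicates. Vehicle-treated cultures of the same time (3 arrays) served both doses, and the same doses and vehicle were also measured at 72 h (9 arrays). The sources used here name the doses as high and low and give no concentrations. HK-2 is a single immortalized line, so the replicates are cultures of 1 line and not of several people.

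The proximal tubule reabsorbs most of the filtered salt, glucose and amino acids, and its transporters bring many toxic organic anions into the cell. When such cells are stressed they commonly change cell cycle genes, stress transcription factors such as ATF3, secreted proteases and the transport proteins that mark the differentiated tubule. Replication-dependent histone genes, which lie in clusters and normally peak with DNA synthesis, and the subunits of the Mediator, which links transcription factors to RNA polymerase II, are described as groups below.

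Values are log2 expression values as deposited, so a difference of 1 is a 2-fold change. A gene was tested if it exceeded 4 on at least 3 of the 18 Ota arrays, and it was called at an adjusted p below 0.05 (limma, Benjamini-Hochberg over the 11029 genes tested). Of 16 epithelial markers of the kidney, 9 were tested, among them KRT8, KRT18, PAX8 and CDH1. The apical markers CUBN, LRP2, AQP1 and SLC34A1 did not pass the filter. Among these markers the label thus rests on general epithelial genes and the renal gene PAX8, and not on the apical ones. The log2 summed level of the tested epithelial markers was 14.81 to 15.01 at the low dose and 14.4 to 14.68 at the high dose. Among leukocyte markers, 2 of 11 were tested, ITGAM and FCER1G, and PTPRC, CD3E and CD14 were not. Their log2 summed level was 3.7 to 5.36 at the low dose and 6.69 to 7.19 at the high dose. Of the fibroblast markers 4 of 10 were tested, with summed levels of 11.4 to 11.9 and 11.78 to 12.29, and of the endothelial markers 2 of 10, with 6.39 to 6.8 and 6.65 to 7.95. The part of any other cell type in the results was not tested, and in RNA from whole cultures fewer cells of a kind and less RNA per cell cannot be told apart.

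At 24 h the 2 doses differed at most of the tested genes, with falls outnumbering rises. Of 11029 genes, 6413 were called (58.1%), 2144 of them higher (19.4%) and 4269 lower (38.7%) at the high dose. Differences of at least 2-fold were called for 699 genes in the upward direction (6.34%) and 2773 in the downward direction (25.1%). The 3 high dose arrays lay outside the range of the 3 low dose arrays for 6750 genes (61.2%), above it for 21.8% of the tested genes and below it for 39.5%. Leaving out each array in turn gave 5708 to 6575 called genes.

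The split between higher and lower depended on the scaling of the arrays. The high dose arrays had lower medians over the tested genes (7.69, 7.46 and 7.78 for replicates 1 to 3) than the low dose arrays (8.18, 8.11 and 8.17), and replicate 2 of the high dose was the farthest from the others. The median difference over all tested genes was -0.21 as deposited, 0.09 after quantile normalization and 0.3 after shifting each array to a common median. Accordingly 33.4% of the called genes were higher as deposited, 54.8% (3761 of 6863) after quantile normalization and 63.6% (4743 of 7459) after the shift. As shares of all tested genes, 34.1% were higher and 28.1% lower after quantile normalization, and 43% higher and 24.6% lower after the shift, and the counts of each gene group are to be read against these shares. Gene groups below are given with their counts under both scalings where these move the balance of higher and lower members.

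**Figure D1:**
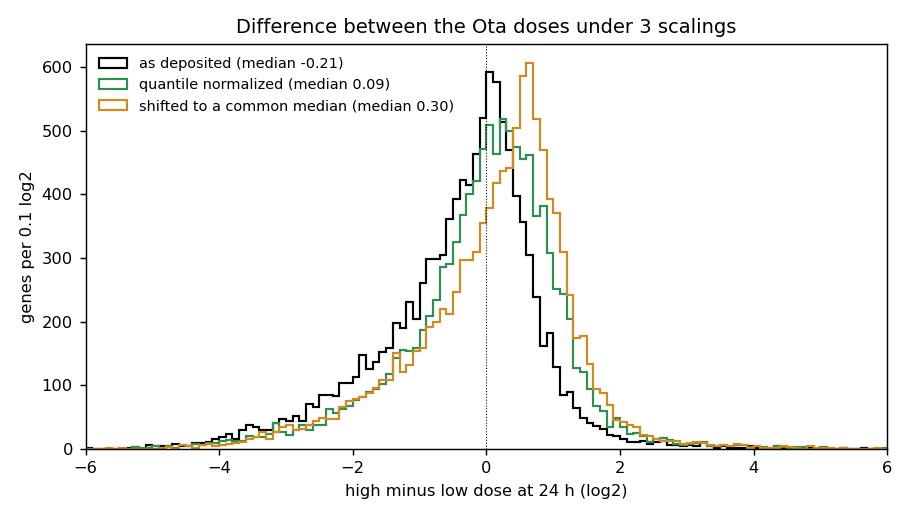
Number of genes per 0.1 log2 (y axis) by the difference between the high and the low dose of Ota at 24 h (x axis, log2), for 11029 tested genes under 3 scalings of the arrays. As deposited the peak stands near 0 with a long left tail of lowered genes (median -0.21), and after the shift to a common median the peak lies to the right of 0 (median 0.3) with the left tail still present; the few genes beyond 6 log2 units are not drawn.

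Most of the 12 largest rises between the doses were in genes close to background at the low dose. FGF18, a secreted fibroblast growth factor, read 3.13, 4.10 and 3.20 on the low dose arrays and 11.84, 11.42 and 11.59 on the high dose arrays. The groups were far apart, the 3 vehicle arrays averaged 3.14, and the difference was 8.14 ± 0.52 (SE), with an adjusted p of 6.09e-09 in limma. The other 4 FGF18 probe sets differed by 2.85 to 7.41 in the same direction. MSH4, a MutS homolog known from meiotic recombination, read 2.43, 2.43 and 2.63 at the low dose and 9.57, 9.19 and 9.18 at the high dose. Its low dose arrays were all under 4, so the rise was at least 39.8-fold. FRZB, a secreted Wnt antagonist, read 2.54, 4.40 and 2.55 against 9.71, 9.15 and 9.26, a difference of 6.21 ± 0.59 (SE). A single low dose array of FRZB lay above 4.

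Several of the genes that came on at the high dose are best known from other tissues. PON1, a paraoxonase secreted by the liver, read 2.05, 2.25 and 2.07 at the low dose and 7.93, 7.78 and 7.56 at the high dose (at least 13.5-fold). ALB, which encodes serum albumin, read 2.79, 2.88 and 2.88 against 8.26, 7.80 and 6.91 (at least 12.6-fold). NPR3, the clearance receptor of natriuretic peptides, read 2.25, 2.25 and 2.26 against 7.68, 8.17 and 7.05 (at least 12.4-fold). None of the 3 differed from vehicle at the low dose beyond 0.1 log2, and their low and high dose arrays did not overlap. The histone gene H2AC17 rose at least 11.6-fold, and the Golgi GTPase gene RAB30 by 4.46 ± 0.37 (SE). CELF2, an RNA-binding regulator of splicing, rose by 3.36, and the actin regulator gene WIPF3 by 3.53.

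ATF3, a transcription factor of the cellular stress response, was also among the 12 largest rises. It read 3.89, 4.39 and 4.26 on the low dose arrays, like the vehicle mean of 4.17, and 8.02, 8.34 and 8.16 on the high dose arrays. The difference was 3.99 ± 0.40 (SE, adjusted p 5.82e-07 in limma), and the doses were clearly separate on all 6 arrays. AVIL, an actin-binding protein of the villin family, was the one gene among the 12 largest rises that was also called higher at the low dose than in vehicle. AVIL averaged 3.67 in vehicle, read 6.14, 7.36 and 6.23 at the low dose and 10.07, 9.75 and 10.15 at the high dose.

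Most of the 12 largest falls took expressed genes close to background. TMEM37, a membrane protein related to calcium channel subunits, read 9.65, 9.17 and 9.82 at the low dose and 2.16, 1.92 and 3.62 at the high dose, at least 46.7-fold lower. CARD10, a scaffold protein of NF-kB signalling, read 10.01, 9.84 and 9.88 against 3.14, 2.49 and 5.59, a difference of -6.17 ± 0.51 (SE). Its high dose arrays were widely spread, yet each lay below each low dose array. The other tested probe set of CARD10 was not called. CYS1, which encodes the ciliary protein cystin, read 11.51, 10.87 and 11.40 against 6.29, 5.12 and 7.44. COMMD2 fell by 5.04, EMC2, a subunit of the ER membrane complex, by 4.81, and the deubiquitinase gene USP25 by 4.93.

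Genes of ribosome assembly, nuclear pores and DNA synthesis were among the same 12. RRP36, which acts in ribosomal RNA processing, read 8.92, 8.65 and 9.10 at the low dose and 3.67 on each of the 3 high dose arrays (at least 29.6-fold lower). NUP85, a scaffold nucleoporin, read 9.84, 9.70 and 10.01 against 4.26, 3.25 and 6.78. CTPS1, which makes CTP, read 9.47, 9.10 and 9.70 against 3.11, 3.17 and 5.89, and the replication kinase gene CDC7 read 8.85, 8.73 and 9.13 against 3.85, 3.25 and 4.62. In NUP85 and CTPS1 the third high dose replicate was the least lowered, while in none of these 4 genes did the groups overlap. CDCA7, a DNA-binding protein of proliferating cells, fell by 4.75 on the probe set used, while its other tested probe set was not called. The protocadherin gene PCDH7 fell at least 32.9-fold on its brightest probe set, but another of its probe sets was called in the opposite direction (0.74, adjusted p 0.0153 in limma). All 24 genes of these 2 lists kept their direction under both other scalings.

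**Figure D2:**
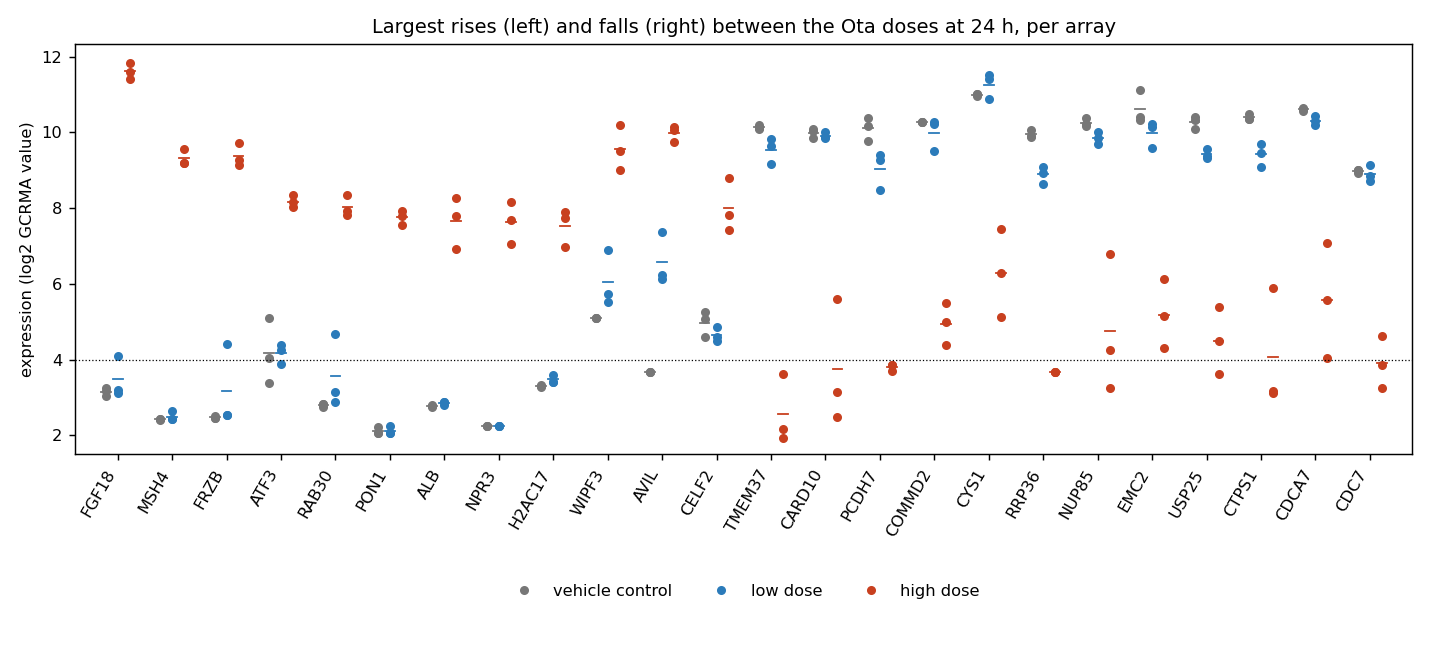
Expression (y axis, log2) of the 12 genes with the largest rises and the 12 with the largest falls between the Ota doses at 24 h, chosen for that difference; points are the 3 arrays of vehicle (grey), low dose (blue) and high dose (red), short lines are means, and the dotted line marks 4. For most genes the low dose points sit with the vehicle points, as for ATF3 (means 4.18 and 4.17), and AVIL is higher at the low dose than in vehicle (6.58 against 3.67).

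Among tested members, histone genes had the largest share higher at the high dose of the gene lists other than cell type markers. Of 24 listed histone genes 16 had a probe set and 12 passed the filter, and the others are not in the share. Members such as H2AC8 were under 4 on all vehicle and low dose arrays and passed through high dose arrays alone. The rise of such members follows from the filter, which favours the share and the median. Of 12 tested histone genes, 9 rose, 1 fell and 2 were not called, with a median difference of 1.57 beside -0.21 for all tested genes. The counts were 9 and 1 after quantile normalization, 9 and 0 after the shift, and 9 and 1 without replicate 2 of the high dose. H2AC8, which encodes a core histone H2A, read 2.47, 2.49 and 2.49 at the low dose and 6.47, 5.80 and 7.08 at the high dose (at least 5.48-fold). H3C2 (2.50) and H4C8 (2.44), an H3 and an H4 gene, rose likewise from low dose means of 2.94 and 2.87. These 3 genes and H1-2, a linker histone gene, had the pattern of the high dose alone.

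Of the 6 tested H2B genes, 5 were graded over the doses. H2BC4 averaged 3.62 in vehicle, read 6.70, 7.52 and 7.24 at the low dose and 9.45, 9.17 and 9.82 at the high dose. H2BC6 read 6.66, 7.03 and 7.21 against 8.45, 8.61 and 8.75, above a vehicle mean of 5.50. H2BC9, H2BC5 and H2BC12 rose between the doses by 1.60, 1.53 and 1.33, each also called for the low dose against vehicle. H2BC21, the remaining H2B gene, was near background throughout, with means of 2.29 in vehicle, 2.35 at the low dose and 2.35 at the high dose, and was not called (0.01, adjusted p 0.983 in limma). H2AC6, the other uncalled member, had reached its full level at the low dose: it averaged 4.87 in vehicle, read 10.01, 10.25 and 10.54 at the low dose and 10.18, 9.82 and 10.46 at the high dose. Those 2 groups overlapped, and the 95% interval of their difference ran from -0.72 to 0.49. H2AZ1, the replication-independent variant H2A.Z, fell by 0.48, a fall that was lost after the shift to a common median (0.03). Histone genes of these clusters are near-identical in sequence, so signal may be shared between them.

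The stretches before the starts of 3 histone genes are shown because the genes respond alike in kind but at different doses. H2AC17 is a histone gene outside the list of 12. H2AC6 and H2BC4 start back to back, so that a single stretch lies before both, and both were raised at the low dose, whereas H2AC8 and H2AC17 were raised at the high dose alone. The sequences are the 250 bases before each start from RefSeq (GRCh38.p14), on the strand of the gene, for H2AC6 chr6:26123922-26124171 (plus strand; the H2BC4 stretch on the minus strand is chr6:26123927-26124176), H2AC8 chr6:26216671-26216920 (plus) and H2AC17 chr6:27893186-27893435 (minus). Capitals mark the octamer ATTTGCAT (or ATGCAAAT), the TATA box TATAAA (or TTTATA) and the CCAAT box (CCAAT or ATTGG), searched on both strands.
H2AC6: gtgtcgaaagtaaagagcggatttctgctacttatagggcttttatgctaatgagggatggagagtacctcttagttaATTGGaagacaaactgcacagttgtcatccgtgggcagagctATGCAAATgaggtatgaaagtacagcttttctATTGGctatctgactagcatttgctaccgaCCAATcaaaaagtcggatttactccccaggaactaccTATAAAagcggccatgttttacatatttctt
H2AC8: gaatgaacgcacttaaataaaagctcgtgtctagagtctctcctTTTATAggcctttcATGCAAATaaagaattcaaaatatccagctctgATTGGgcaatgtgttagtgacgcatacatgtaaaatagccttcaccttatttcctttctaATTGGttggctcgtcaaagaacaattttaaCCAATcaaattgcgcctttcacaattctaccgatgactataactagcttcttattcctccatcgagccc
H2AC17: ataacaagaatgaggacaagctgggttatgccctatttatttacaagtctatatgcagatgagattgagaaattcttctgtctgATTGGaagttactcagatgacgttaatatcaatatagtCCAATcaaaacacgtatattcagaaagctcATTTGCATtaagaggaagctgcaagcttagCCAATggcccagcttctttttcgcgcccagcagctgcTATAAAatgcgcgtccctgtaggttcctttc
All 3 stretches hold the octamer, CCAAT boxes and TATA box letters. In H2AC8 the TATA box letters are TTTATA far from the start, whereas H2AC6 and H2AC17 hold TATAAA close to it. The 12 tested histone genes all had a sequence, and 7 held the octamer (58.3%), 9 the TATA box (75%) and 11 the CCAAT box (91.7%), beside 2.03%, 13% and 37% of the 27305 genes with a sequence, counting any stretch of a gene. The motif TGACGTCA, bound by CREB and ATF proteins, was in 3 of the 12 (25%), beside 2.03% of the 27305 genes. Octamer, TATA and CCAAT letters were thus present before histone genes of both dose patterns. A match is a stretch of letters and not a tested site.

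Most of the called differences between the doses had no called counterpart at the low dose. Of the 6413 called genes, 4163 (64.9%) had the pattern of the high dose alone, meaning that the high dose differed from vehicle in the same direction while the low dose was not called and lay within 0.5 log2 of vehicle. Of these, 1447 were higher and 2716 lower. Another 726 genes were graded, with the low dose called in the same direction, 333 were opposed, with the low dose called in the other direction, and 1191 were unsettled. Just inside the window lay POLR2C, with a low dose change of 0.50 in size, and just outside VRK1, with 0.5005. The window alone kept 637 otherwise eligible genes out of the high dose pattern. The high dose against vehicle called 7058 genes (64.0%) and the low dose against vehicle 1619 (14.7%), comparisons that share the vehicle arrays. The low dose arrays enter both the dose difference and the low dose change, with opposite signs, so chance error in them adds to the opposed class. With the replicate number as a block the high dose pattern held 4323 genes, the graded pattern 861 and the opposed pattern 388. Without replicate 2 of the high dose the high dose pattern held 4137 genes, after quantile normalization 4682 (2669 higher, 2013 lower) and after the shift 5272 (3500 higher, 1772 lower). With array weights the low dose called 3632 genes against vehicle, and the patterns were not counted under that setting.

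For a small number of strong low dose responses the difference between the doses was not called. Besides H2AC6, DDX5, an RNA helicase, averaged 7.55 in vehicle, read 10.95, 10.74 and 10.52 at the low dose and 10.68, 10.54 and 10.56 at the high dose. The groups overlapped, and the difference between the doses was -0.15 ± 0.16 (SE, adjusted p 0.444 in limma). IFI35, an interferon-induced gene, averaged 7.19 in vehicle and was under 4 on all 3 arrays of either dose, where its difference of 0.40 was not called (adjusted p 0.194 in limma) except after the shift (0.91, adjusted p 0.00857). POLA2, the accessory subunit of DNA polymerase alpha, averaged 7.78 in vehicle, read 4.98, 4.05 and 5.49 at the low dose and 3.57, 3.22 and 5.06 at the high dose. The difference of POLA2 between the doses was not called (-0.89, adjusted p 0.0645 in limma), but it was without replicate 3 of the high dose (-1.45, adjusted p 0.00106) or replicate 2 of the low dose (-1.29, adjusted p 0.0123). It was also called in limma with all 36 arrays in 1 fit (adjusted p 0.0182), a replicate block (adjusted p 0.0217) and array weights (-1.26, adjusted p 7.62e-04). A further fall of POLA2 at the high dose is therefore not settled.

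For 4 other large low dose responses the change was larger at the high dose. GCNA, a germ cell protease gene, averaged 5.22 in vehicle, 8.37 at the low dose and 9.35 at the high dose. NRG1, an EGF family ligand, averaged 9.60 in vehicle, read 6.73, 5.33 and 7.26 at the low dose and 3.92, 3.30 and 4.07 at the high dose. TLCD1, a membrane protein, averaged 8.45 in vehicle, read 5.43, 3.58 and 5.73 at the low dose, and was under 4 on the 3 high dose arrays, at least 2.07-fold lower. DDIT4, an inhibitor of mTORC1 signalling, stepped down from a mean of 13 in vehicle to 11.53, 11.40 and 11.26 and then to 8.93, 8.65 and 9.04. EEF1A1, a translation elongation factor, did not belong with these: it rose by 3.22 at the low dose on the probe set used, yet its other 4 probe sets lay between 14.95 and 15.71 at either dose and in vehicle between 15.02 and 15.65. That set gave a dose difference of -0.94, whereas none of the other 4 was called.

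In a further class the low dose moved a gene away from vehicle and the high dose did not, moved it less far, or moved it to the other side. MPND averaged 6.63 in vehicle, read 3.74, 3.38 and 3.83 at the low dose and 6.88, 7.39 and 6.48 at the high dose (at least 7.55-fold higher than at the low dose). NFE2L3, a transcription factor of the NRF family, averaged 6.83 in vehicle, read 4.17, 3.25 and 3.38 at the low dose and 6.88, 7.16 and 5.89 at the high dose. GYS1, a glycogen synthase, read 5.04, 4.35 and 4.80 against 7.37, 7.93 and 6.56, with a vehicle mean of 7.92. In these 3 genes the high dose was back near vehicle and clear of the low dose arrays. NDUFAF3, an assembly factor of respiratory complex I, rose by 2.66, and TP53I3, a p53 target, by 1.79, both from low dose levels below vehicle. OASL, an interferon-stimulated gene, rose by 2.17 in the same way. TP53I3 was still lower than vehicle at the high dose (-0.89, adjusted p 0.00633 in limma).

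The reverse was seen for CEP78, a centrosomal protein, which averaged 6.37 in vehicle, read 7.00, 6.93 and 7.28 at the low dose and 3.35, 3.33 and 3.62 at the high dose (at least 8.39-fold lower). RABL3 averaged 7.03 in vehicle, read 7.70, 7.35 and 7.97 at the low dose and 5.52, 4.95 and 5.34 at the high dose. SPECC1 fell by 3.42 and FXYD2, a regulator of the sodium pump, by 3.55 on the probe sets used. Another probe set of each was called in the opposite direction (1.30 and 0.71), that of FXYD2 at a much brighter level of 13.06 at the low dose.

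**Figure D3:**
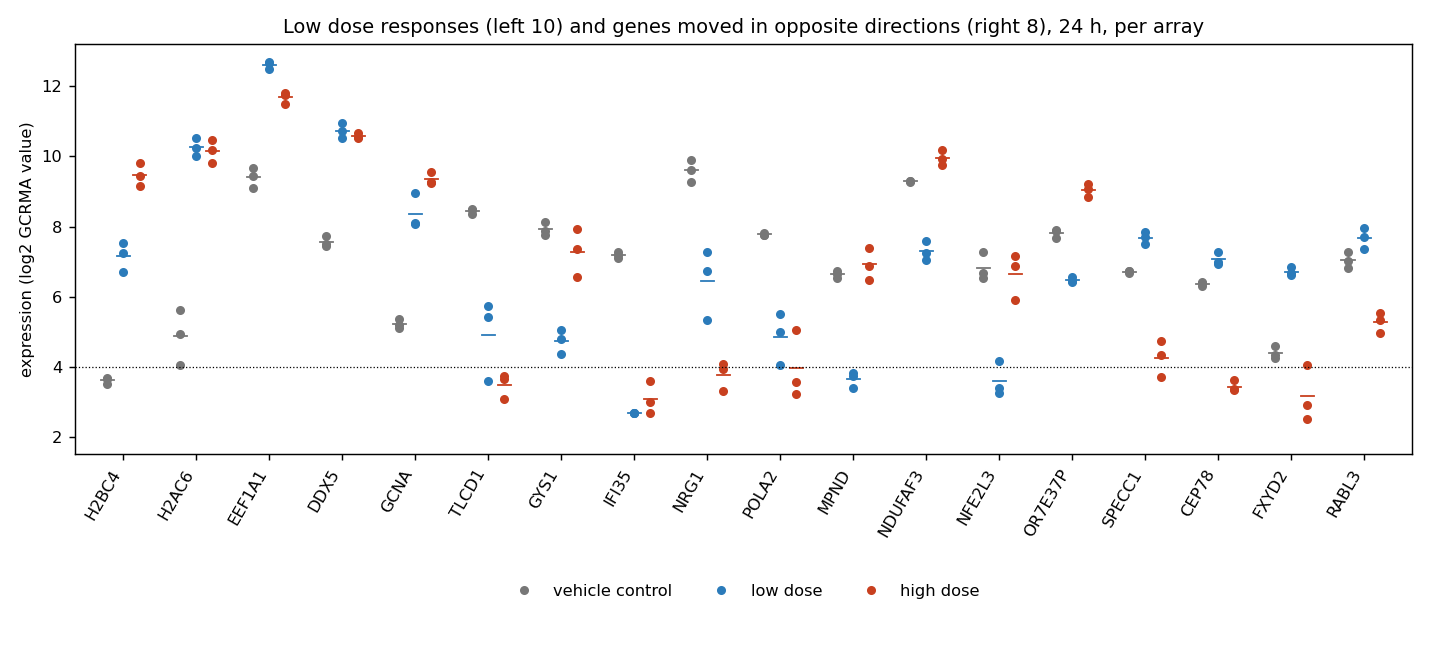
Expression (y axis, log2) of 10 genes with the largest low dose changes against vehicle and of 8 genes called between the doses against the direction of the low dose change, chosen for those differences; points are the 3 arrays of vehicle (grey), low dose (blue) and high dose (red), lines are means, and the dotted line marks 4. H2AC6 and DDX5 are at the same height at both doses, while MPND and NFE2L3 dip at the low dose and lie near vehicle at the high dose.

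Secreted proteases and their regulators were mostly higher at the high dose. Of 11 tested members, 8 rose and 1 fell (9 and 1 after quantile normalization, 10 and 0 after the shift, 7 and 0 without replicate 2 of the high dose), with a median of 0.64. PLAUR, the receptor of urokinase, read 5.79, 6.10 and 5.80 at the low dose and 8.61, 8.58 and 8.53 at the high dose, a difference of 2.68 ± 0.16 (SE). MMP1, an interstitial collagenase, read 6.87, 8.55 and 5.90 against 9.54, 10.80 and 9.12, with a wide spread at both doses but no overlap. The activators PLAT (1.72) and PLAU (0.63), the inhibitor SERPINE2 (1.14) and the matrix metalloprotease gene MMP7 (1.13) also rose, all without a called low dose change. ADAMTS1 was the member that fell (-0.84), and its call was lost without replicate 2 of the high dose (-0.53, adjusted p 0.0554 in limma).

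More mitosis genes fell than rose at the high dose. Of 43 tested mitosis genes 23 fell and 3 rose (20 and 3 after quantile normalization, 16 and 10 after the shift). MKI67, a marker of proliferating cells, read 10.52, 10.56 and 10.67 at the low dose and 7.61, 7.84 and 8.32 at the high dose, and its vehicle mean was 11.25. SPC25, a kinetochore subunit, read 8.63, 8.64 and 9.22 against 5.09, 3.74 and 5.67, and CCNB1, the cyclin of mitotic entry, fell by 3.40. The kinase gene TTK rose by 0.89 and ANLN by 0.67, while the kinase gene PLK1 (0.23) and the topoisomerase gene TOP2A (-0.20) were not called. Cyclins and E2F factors of G1 gave 1 rise and 8 falls of 20 as deposited, where the share that fell was near that of all genes (38.7%), 3 and 6 after quantile normalization and 7 and 4 after the shift. CCND2 read 10.98, 9.64 and 9.65 against 7.65, 6.41 and 7.03, and E2F5 rose by 0.71. The 3 other tested probe sets of CCND2 were not called.

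DNA replication genes gave 21 falls and 4 rises of 41 as deposited, 15 and 6 after quantile normalization, and 14 falls and 15 rises after the shift, beside 24.6% lower and 43% higher over all genes after the shift. RPA2, a subunit of the single-strand binding protein, read 9.59, 9.37 and 9.55 at the low dose and 6.34, 5.69 and 7.25 at the high dose, without overlap. The clamp loader subunit genes RFC3 (-2.60), RFC4 (-1.61) and RFC2 (-1.55) fell while RFC1 (0.17) and RFC5 (0.24) were not called. Nucleotide synthesis enzymes gave 11 falls and 1 rise of 20 (10 and 2, and 7 and 6, under the other scalings). After CTPS1 the largest fall among them was UMPS, which makes UMP, by 4.36, and the enzyme gene GMPS of GMP synthesis fell by 2.12. PPAT, the first enzyme of purine synthesis, rose by 0.62.

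Repair genes followed both directions. Recombination and Fanconi genes gave 13 falls and 4 rises of 25 (10 and 6, and 11 and 7, under the other scalings). EXO1, an exonuclease, read 7.40, 7.59 and 7.78 at the low dose and 4.69, 4.95 and 4.80 at the high dose. BLM, the Bloom helicase, went the other way with 6.69, 7.06 and 7.10 against 8.49, 8.45 and 8.82, and XRCC2 rose by 1.40. Of 18 nucleotide excision repair genes 8 fell and 4 rose as deposited, near the shares over all genes (38.7% and 19.4%), 6 fell and 6 rose after quantile normalization, and 5 fell and 9 rose after the shift. GTF2H4, a TFIIH subunit, read 7.20, 6.96 and 7.14 against 3.13, 2.97 and 3.12, at least 8.57-fold lower.

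Targets of p53 and members of the BCL2 family gave more falls than rises as deposited, as did all tested genes (38.7% lower, 19.4% higher). Of 25 p53 targets 12 fell and 3 rose, but 10 fell and 10 rose after quantile normalization and 10 fell and 9 rose after the shift. MDM2, the ubiquitin ligase of p53, read 8.88, 8.51 and 8.57 at the low dose and 6.85, 5.11 and 6.60 at the high dose (-2.47 ± 0.33, SE). FAS, a death receptor, read 10.02, 9.74 and 10.41 against 7.75, 6.26 and 8.69, and ZMAT3 and POLH fell as well. The 3 that rose were TP53I3 (1.79), PLK3 (0.96) and TNFRSF10A (0.74). Other tested probe sets of PLK3 and TNFRSF10A were not called. The call of TNFRSF10A was lost with the mean of its probe sets (0.21, adjusted p 0.363 in limma). CDKN1A, the cell cycle inhibitor p21, read 8.97, 8.87 and 8.78 against 9.17, 8.88 and 9.44. Its difference of 0.29 was not called (adjusted p 0.213 in limma) but was after quantile normalization (0.53, adjusted p 0.0185) and after the shift (0.8, adjusted p 0.00125). In the BCL2 family 7 of 12 fell and 1 rose (5 and 2 after quantile normalization, 5 and 3 after the shift). The genes that fell included the pro-apoptotic gene BOK (at least 6.34-fold lower) and the survival genes MCL1 (-1.57), BCL2L1 (-1.35) and BCL2L2 (-2.67).

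Most Mediator subunits were lower at the high dose. Of 29 tested subunits 18 fell and 4 rose (16 and 5 after quantile normalization, 15 and 9 after the shift), with a median of -1.15, and 8 of the called members were graded. MED21, a subunit of the middle module, averaged 8.96 in vehicle, read 7.72, 6.76 and 7.93 at the low dose and 2.80, 2.15 and 3.06 at the high dose, at least 11.1-fold lower. MED20 (-3.97), MED29 (-2.93) and MED16 (-2.60) fell next most. MED26, a subunit that joins the Mediator to elongation factors, went the other way with 9.27, 9.62 and 9.04 at the low dose and 12.40, 12.14 and 12.27 at the high dose. The kinase module genes CDK8 (-1.09) and CDK19 (-1.78) fell while CCNC (-0.19) was not called.

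Ribosome biogenesis factors were more often lower, and oxidative phosphorylation genes more often higher, as deposited. Of 31 ribosome biogenesis factors 15 fell and 3 rose (12 and 8, and 10 and 10, under the other scalings). NOB1, an endonuclease of ribosome maturation, read 9.73, 9.67 and 9.62 against 6.04, 4.80 and 6.82, and LYAR rose by 1.56. Among 29 cytosolic ribosomal protein genes 6 rose (20.7%) and none fell in limma, with a median of 0.14. The share that rose was near that of all genes (19.4%), while 38.7% of all genes fell. After quantile normalization 4 rose, beside 34.1% of all genes, and after the shift 29 rose, beside 43% of all genes. Of 35 oxidative phosphorylation genes 13 rose and 3 fell (14 and 2, and 30 and 0, under the other scalings), with a median of 0.29. NDUFB10 of complex I averaged 10.93 in vehicle, read 9.92, 10.29 and 9.94 at the low dose and 10.99, 11.59 and 10.57 at the high dose. Its difference thus lay in a low dose level below vehicle (-0.88, adjusted p 0.0157 in limma), while the high dose was not called against vehicle (0.12, adjusted p 0.667). Without replicate 2 of the high dose 9 of these genes rose and 3 fell.

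**Figure D4:**
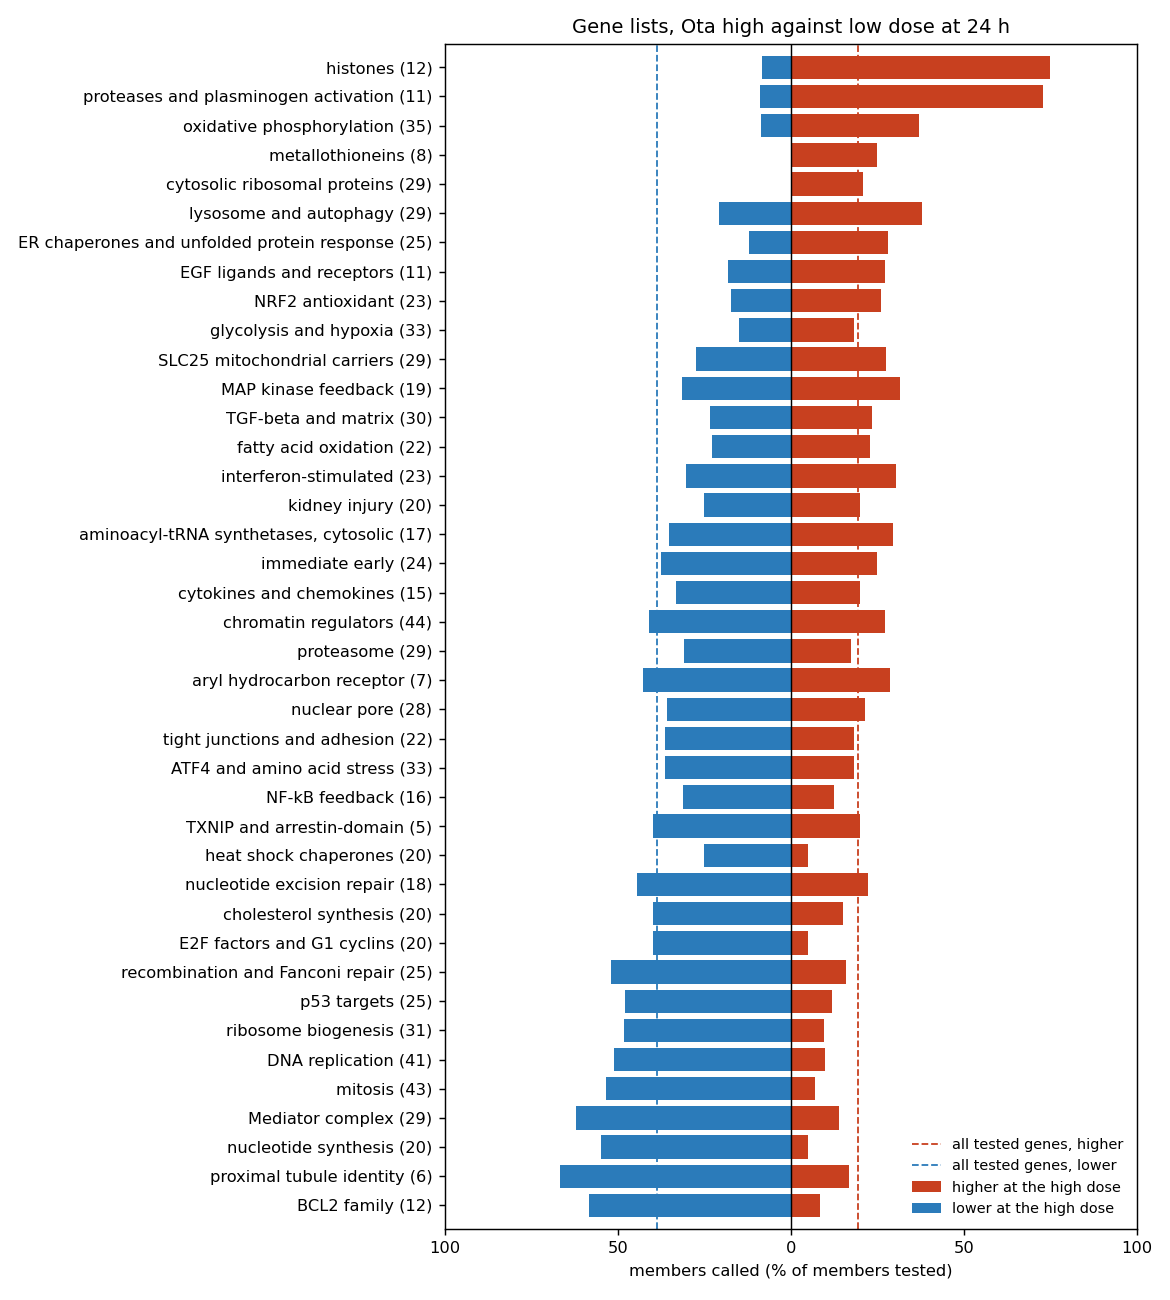
Share of tested members (x axis, percent) called higher (red, right) or lower (blue, left) at the high than at the low dose of Ota at 24 h, for each gene list with its number of tested members. Dashed lines mark the shares over all tested genes (19.4% higher, 38.7% lower); histones and proteases reach farthest to the right, and the bars are for the values as deposited, whose balance moves toward higher under the other scalings.

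Stress genes did not move as one group. Genes of amino acid stress and ATF4 signalling gave 6 rises and 12 falls of 33 as deposited, near the shares over all genes (19.4% and 38.7%), 14 and 9 after quantile normalization (34.1% and 28.1% over all genes) and 16 and 5 after the shift (43% and 24.6%). Besides ATF3 at the one end and DDIT4 at the other, DDIT3, which encodes CHOP, read 6.75, 6.86 and 6.87 at the low dose and 6.31, 5.12 and 7.70 at the high dose. Its difference was not called (-0.45, adjusted p 0.415 in limma), but it was without replicate 3 of the high dose (-1.11, adjusted p 0.0134). HMOX1, heme oxygenase 1, read 7.37, 7.03 and 6.93 against 7.02, 5.16 and 6.93 and was not called (-0.74, adjusted p 0.103), though it was without replicate 1 (-1.06, adjusted p 0.0323) or replicate 3 (-1.02, adjusted p 0.039) of the high dose. NQO1, a quinone reductase, averaged 10.39 in vehicle, 9.50 at the low dose and 10.56 at the high dose, and the high dose was not called against vehicle (0.17, adjusted p 0.711 in limma). Its difference between the doses was 1.06, a call lost without replicate 2 of the high dose (0.91, adjusted p 0.072) or replicate 3 of the low dose (0.88, adjusted p 0.0877). MTF1, the factor that drives metallothionein genes, rose by 1.63 while, of the metallothionein genes themselves, MT1M (1.08) was called and MT2A (0.31) and MT1X (0.26) were not.

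Signalling genes that rose at the high dose included regulators of several pathways. DUSP10, a phosphatase of stress kinases, read 6.98, 6.20 and 6.28 at the low dose and 9.50, 9.51 and 9.23 at the high dose. HBEGF, an EGF family ligand, read 5.76, 5.19 and 5.98 against 7.66, 7.87 and 7.83, and the receptor gene ERBB2 fell with 8.04, 7.86 and 7.96 against 4.95, 6.35 and 4.37. The other tested probe set of ERBB2 was not called. ADM, the vasodilator peptide adrenomedullin, read 4.85, 5.98 and 5.34 against 8.25, 7.80 and 8.09. AHRR, a repressor of the aryl hydrocarbon receptor, was under 4 on the low dose arrays and read 6.50, 5.15 and 5.25 at the high dose (at least 3.11-fold), whereas the receptor's target CYP1B1 fell by 1.85. JUND fell by 3.99 with 11.67, 11.58 and 11.81 against 7.51, 6.78 and 8.79. The cytokine genes were split, with IL32 at 2.00 and TNFSF9 at -3.64 between the doses.

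Genes of the differentiated tubule were mostly lower, from a small number tested. Of 32 proximal tubule identity genes 6 were tested, of which 4 fell and 1 rose, beside 38.7% lower and 19.4% higher over all genes. After quantile normalization 3 fell and 1 rose, and after the shift 4 fell and 2 rose. PAX8, a transcription factor of the renal epithelium, read 10.22, 10.05 and 10.41 at the low dose and 7.63, 7.96 and 8.18 at the high dose. SLC4A4, the basolateral bicarbonate transporter, read 12.13, 11.87 and 12.19 against 9.94, 9.57 and 10.32. SLC3A1, a subunit of a cystine transporter, fell by 1.54. In none of the 3 did the doses overlap, and none had a called low dose change. Among 20 kidney injury genes 4 rose, among them CD44 (1.21) and PLAUR, and 5 fell, among them VCAM1 (-3.47), beside 19.4% higher and 38.7% lower over all genes. The counts were 4 rises and 4 falls after quantile normalization and 10 and 4 after the shift. HAVCR1, the injury marker KIM-1, read 11.08, 10.25 and 10.99 against 10.39, 10.38 and 10.24 and was not called (-0.44, adjusted p 0.303 in limma).

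The same doses were compared at 72 h, on arrays that enter neither group mean at 24 h but share the filter and the estimate of the spread. At 72 h 6437 genes were called between the doses (58.4%), 21.7% of those tested higher and 36.7% lower. Of the 2144 genes higher at 24 h, 904 were called higher at 72 h as well (42.2% of the 24 h list and 37.8% of the 72 h list) and 490 were called lower. Of the 4269 genes lower at 24 h, 2176 were called lower at 72 h (51.0% and 53.8% of the lists) and 367 higher. The shared upward share was 55.5% of the 24 h list after quantile normalization and the shared downward share 43.3%. The interaction, which tests whether the dose difference changed with time, was called for 5350 genes (48.5%), of which 57.6% were upward as deposited and 49.3% after the shift.

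MSH4, H2AC17 and CYS1 kept large differences at 72 h (5.73, 3.62 and -4.68, against 6.81, 4.06 and -4.98 at 24 h), as did TMEM37 (-6.21). The difference shrank for FGF18 from 8.14 to 3.54, for PON1 from 5.63 to 1.41, for NPR3 from 5.38 to 0.95 and for ALB from 4.81 to 0.60, each with a called interaction. These genes were chosen for a large 24 h difference, which by itself favours a smaller one at 72 h. ATF3 was 3.99 at 24 h and -0.68 at 72 h, where its difference was not called (adjusted p 0.153 in limma). Its means in vehicle, low dose and high dose were 4.17, 4.18 and 8.18 at 24 h and 9.75, 9.43 and 8.74 at 72 h. The dose difference of ATF3 thus closed as vehicle and low dose levels were higher at 72 h, while the high dose level was similar. At 72 h the high dose was called below vehicle for ATF3 (-1.0, adjusted p 0.0366 in limma). CARD10 and NUP85, among the strongest falls at 24 h, were at -0.86 and -0.12 at 72 h, and POLQ, a DNA polymerase of end joining, went from at least 11.8-fold lower at 24 h to a difference of 0.90 at 72 h. The difference of MKI67 at 72 h was -0.02 (adjusted p 0.935 in limma). Over all tested genes at 72 h, 21.7% were higher and 36.7% lower. At 72 h the 43 tested mitosis genes gave 13 rises and 7 falls (16 and 5, and 23 and 5, under the other scalings). The 31 ribosome biogenesis factors gave 18 rises and 3 falls (23 and 3, and 24 and 1). The 35 oxidative phosphorylation genes gave 6 rises and 17 falls (7 and 17, but 12 and 8 after the shift). For each of these 3 lists the balance at 24 h was the other way on the deposited scale. Against vehicle at 72 h, mitosis genes gave 30 rises and 5 falls at the high dose and 24 and 0 at the low dose. Vehicle levels also differed with time for SPC25 and TTK, the most lowered and most raised mitosis genes at 24 h. In vehicle they averaged 10.01 and 10.25 at 24 h and 6.96 and 8.52 at 72 h. Vehicle levels of the whole list were not compared between the times. Histones gave 11 rises and no fall in limma, and proteases 9 rises and 1 fall, as at 24 h.

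A few genes that the doses did not separate at 24 h, or that were higher at the high dose, were far lower at 72 h. They were chosen for the size of their interaction. GPR160, an orphan receptor, read 8.21, 8.15 and 8.66 at the low dose and 8.33, 8.53 and 8.30 at the high dose at 24 h, a difference of 0.05 that became -5.86 at 72 h. RNASEH2A, a subunit of ribonuclease H2, went from -0.12 to -5.89. UCP2, a mitochondrial carrier, went from 1.79 at 24 h to -4.29 at 72 h. GCAT, an enzyme of threonine breakdown, went from 0.55 to -5.32, and its 24 h call was lost without any 1 of 5 of the 6 arrays compared, the exception being replicate 3 of the high dose (0.24 to 0.58, adjusted p 0.0648 to 0.239 in limma).

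**Figure D5:**
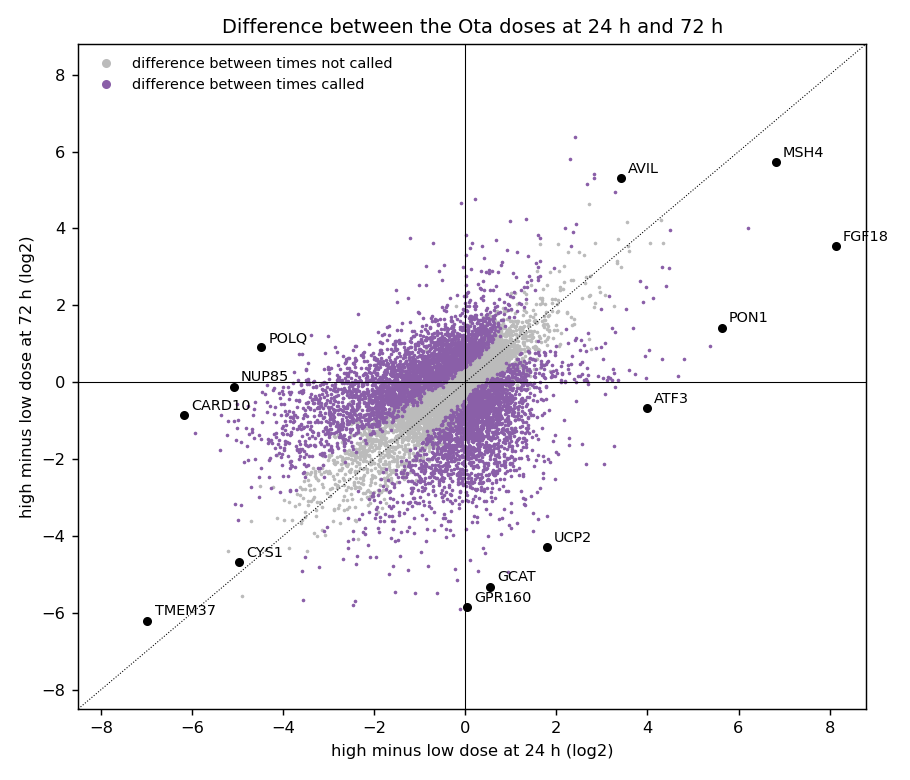
Difference between the high and low dose of Ota at 72 h (y axis, log2) against that at 24 h (x axis, log2) for 11029 tested genes, measured on different arrays; purple points had a called change of the difference between the times, and the dotted line marks equal differences. MSH4, TMEM37 and CYS1 lie near the line, while FGF18, PON1, ATF3, CARD10 and NUP85 lie closer to 0 at 72 h and GPR160, GCAT and UCP2 are low at 72 h alone.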

How the data were processed

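RNA of HK-2 cultures was hybridized to Affymetrix arrays with 1 sample an array, 36 arrays in all. The values are log2 expression per probe set as deposited by the authors, made with GCRMA per the submitters' processing notes, and the sources used here do not give its version. Counts and scanner files were not used, so the precision is limited by 3 arrays a group. Probe sets were named through the platform annotation, with symbols updated through RefSeq, and 1 probe set was kept a gene, the brightest over all arrays, using sets ending in _x_at where a gene had no other. A gene was tested if it exceeded log2 4 on at least 3 of the 18 Ota arrays. A gene near background elsewhere could pass this filter through high dose arrays alone, which favours a rise at the high dose.

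Group means were fitted to the 18 Ota arrays with limma 3.58.1 in R 4.3.3 (lmFit and eBayes, 12 residual degrees of freedom, no replicate block), two-sided, with Benjamini-Hochberg adjustment over the 11029 genes tested and a threshold of 0.05. Intervals are 95% intervals of the fit. The p-values measure the spread between cultures labelled biological replicates. Where the dimmer group was at or under 4 on its 3 arrays, the fold was computed against 4 on the log2 scale and is given as at least that fold. The script was tested on simulated data. Sequences come from RefSeq GRCh38.p14. Tables and figures were made with Python 3.11.15, pandas 2.3.3 and matplotlib 3.10.9.

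Genes are named by this rule, ranked by the log2 difference with values at or under 4 set to 4, leaving out placeholder symbols: the 12 largest rises and falls between the doses among called genes whose arrays do not overlap, the most raised and lowered called member of each list with at least 25% of its members called (up to 3 each way for metallothioneins, histones, p53 targets and tubule identity), 8 genes given whatever their call (CDKN1A, MDM2, ATF3, DDIT3, HMOX1, NQO1, HAVCR1, MKI67), the 5 largest low dose changes each way, the 4 largest opposed changes each way and the 4 largest interactions each way. Other list members named in the text were chosen after their values were seen. The members, lists and rules were chosen with earlier results of these data known.

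Samples of different dose share replicate numbers, and whether the numbers pair the arrays was checked by correlating deviations from group means. For the high against the low dose at 24 h the same-numbered correlations were 0.0739, 0.0666 and 0.186, beside -0.153 to 0.0873 for unlike numbers. The same-numbered values do not all exceed 0.1, a chosen cut, so the numbers were not taken as a pairing for this comparison. A weak pairing is not excluded by this check. For the high dose against vehicle they were 0.109, 0.198 and 0.23 and for the low dose against vehicle 0.402, 0.312 and 0.411. All of these exceeded 0.1, yet the main fit had no block for any comparison, so counts with a block are also given. Alternatives were other scalings, a floor at 4, other filters, other sets of arrays in the fit, a replicate block, the mean of a gene's probe sets, array weights, and leaving out each array. The list and pattern counts under other settings were chosen after seeing the data. Set tests were not run.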

Additional observations from a re-analysis of the deposited data

Results flagged for a closer look

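The difference between the high and the low dose was not the same at 72 h as at 24 h for 5350 of the 11029 genes tested, by the interaction term in limma. Among the genes with the largest differences at 24 h, and among those with the largest interactions, 26 genes differed in this way. The latter were chosen by the interaction itself, so their calls were fixed by the choice. The former were chosen for the 24 h difference that the interaction subtracts, which by itself favours a smaller difference at 72 h. The values below are the difference at 72 h minus that at 24 h on the log2 scale.

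Of the genes raised at 24 h, the difference was smaller at 72 h for FGF18 (-4.59), MSH4 (-1.09), FRZB (-2.19), ATF3 (-4.67), RAB30 (-1.50), PON1 (-4.22), ALB (-4.21), NPR3 (-4.44) and WIPF3 (-1.61). For ATF3 the low dose mean was 4.18 at 24 h and 9.43 at 72 h, and the high dose mean was 8.18 and 8.74. AVIL was the raised gene whose difference grew (1.90), a call lost with the mean of its probe sets (0.41, adjusted p 0.223 in limma). The call of MSH4 was lost with all 36 arrays in 1 fit (adjusted p 0.0887 in limma). The calls of FRZB and RAB30 were lost with no filter on low values (adjusted p 0.101 and 0.0683 in limma), with only the arrays of the groups compared (adjusted p 0.0933 and 0.0692), and on leaving out any of several single arrays, with adjusted p from 0.0643 to 0.0974 for FRZB and from 0.0518 to 0.0768 for RAB30 in limma.

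Of the genes lowered at 24 h, the difference was closer to 0 at 72 h for CARD10 (5.32), PCDH7 (3.85), COMMD2 (3.54), RRP36 (4.22), NUP85 (4.96), EMC2 (3.60), USP25 (1.73), CTPS1 (4.52), CDCA7 (3.41) and CDC7 (4.0). For PCDH7 and USP25 the call was lost with the mean of their probe sets (0.25 and 0.13). POLQ (5.39) and ZNF326, a zinc finger gene (4.22), were lower at 24 h and higher at 72 h at the high dose. UCP2 (-6.08), GCAT (-5.87), RNASEH2A (-5.77) and GPR160 (-5.91) were lower at 72 h alone. The cause of these differences was not tested.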

How the results depend on the processing

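The 24 h difference between doses was called for 5033 genes with only the 6 arrays compared in the fit and for 5937 to 7632 over the other alternatives that kept every array of the doses, all within 1.5 times of 6413, and the fit with a replicate block gave 6680. With the block the counts were 7307 for the high and 1844 for the low dose against vehicle, where the same-numbered correlations all exceeded the chosen cut. The block changed none of the 10 low dose calls named. At 24 h between the doses it changed the call of POLA2 alone among the 141 named genes (-0.89, adjusted p 0.0217 in limma). The low dose count of 1619 became 3632 with array weights, and 942 to 1336 on leaving out 1 array (942 without replicate 2 of the low dose); the cause was not tested.

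These differences changed sign. Between doses at 24 h, after the shift to a common median: H2AZ1 (0.03), SDHD (0.11), DDIT3 (0.06), HAVCR1 (0.08), H2AC6 (0.4), DDX5 (0.37) and RNASEH2A (0.39); after quantile normalization: DDIT3 (0.25), H2AC6 (0.0 after rounding) and RNASEH2A (0.13); with the mean of probe sets: KMT2C (0.03), of which 3 of the 4 other probe sets were called in the opposite direction. With the floor at 4 the difference of IFI35 is 0.0 because its arrays at both doses are under 4. Leaving out 1 array turned DDIT3 (0.18, over a range of -1.11 to 0.18), H2AC6 (0.02 and 0.05, over -0.27 to 0.05), RNASEH2A (0.02 and 0.21, over -0.6 to 0.21) and GPR160 (-0.05 to -0.02). The interaction turned for TMEM37 with the floor (-0.35) and for CYS1 after quantile normalization (-0.02) and without replicate 2 of the high dose at 24 h (-0.28) or 3 at 72 h (-0.02), over a range of -0.28 to 0.88. SDHD and KMT2C are the most lowered members of their lists, at -0.40 and -4.17.

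Limits are 3 arrays a group, 1 cell line, unknown doses, values near background below log2 4, and a count of higher against lower genes that moves with scaling.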

Other observations

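Of 22 tested junction and adhesion genes 4 rose and 8 fell between the doses as deposited, near the shares over all tested genes (19.4% higher, 38.7% lower), with 7 and 7 after quantile normalization and 9 and 6 after the shift. OCLN, which encodes the tight junction protein occludin, read 9.65, 9.31 and 9.76 at the low dose and 7.56, 4.99 and 8.16 at the high dose, so the arrays did not overlap although the second high dose replicate was far lower than the others. MARVELD2, which encodes tricellulin of the same junctions, was higher with 8.54, 8.61 and 8.51 against 9.30, 8.98 and 9.48.

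Lysosome and autophagy genes gave 11 rises and 6 falls of 29, 13 and 4 after quantile normalization and 19 and 4 after the shift. UVRAG, an autophagy regulator, read 7.07, 7.23 and 7.18 at the low dose and 8.82, 8.56 and 8.92 at the high dose, while WIPI1, which binds forming autophagosomes, read 7.84, 7.88 and 8.01 against 5.83, 4.78 and 4.09. PPARGC1A, a coactivator of mitochondrial genes, averaged 8.37 in vehicle, read 8.0, 7.12 and 7.59 at the low dose and 3.92, 4.23 and 4.0 at the high dose. The chromatin remodeller gene ARID1B rose over both steps, from a vehicle mean of 6.66 to 8.14, 8.78 and 8.16 and then 10.86, 10.90 and 10.08. RIGI, an RNA sensor of the interferon response, read 6.98, 6.87 and 7.42 at the low dose and was under 4 at the high dose (at least 8.51-fold lower).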
